A study of Rattus norvegicus with 9 samples.

Results

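The neuronal marker genes Pvalb, Calb1, Calb2, Sst, Npy, Vip, Cck and Spp1 were followed in thalamic RNA from rats fed a solid or a powdered diet. They were chosen by name, as genes used to mark the thalamic reticular nucleus and classes of inhibitory interneurons. Each had 1 probe set with a single gene symbol in the platform annotation, so they make up 8 of the 14217 genes named on the arrays, which hold 31042 rat probe sets. The chow group comprised 4 arrays, from male Wistar rats given solid feed for 8 days. The powder group comprised 5 arrays, from male Wistar rats given powdered feed for the same 8 days. All rats had eaten powder for 2 days beforehand, were 3 weeks old at the start and are labelled as 5 weeks old, and none carried a transgene or received a drug according to the labels. The labels speak of 10 rats, 9 samples were analysed here, and no label ties a sample to an animal. The p-values therefore rest on the spread between arrays, and some of that may be technical. The stated interest of the study was whether chewing after weaning alters inhibitory signalling and dendritic spines in the thalamus, and these genes mark inhibitory cell types on which that question bears.

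The reticular nucleus is a shell of GABA-releasing neurons around the thalamus that inhibits the relay neurons inside it. Its neurons are rich in parvalbumin, and many contain somatostatin. In cortex and hippocampus, parvalbumin, somatostatin and vasoactive intestinal peptide label separate classes of interneuron, and neuropeptide Y, cholecystokinin, calbindin and calretinin label further or overlapping ones. In the rodent thalamus these names are less specific, since interneurons are rare outside the visual relay nucleus and calbindin, calretinin and cholecystokinin are also made by glutamatergic thalamic neurons. Somatostatin is abundant in the neighbouring hypothalamus. Osteopontin, the product of Spp1, is a secreted matrix protein made by some large neurons and also by macrophages.

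Promoter sequences are shown for Sst and Vip, the members with the largest positive and the largest negative difference between the diets. Both are textbook targets of the cyclic AMP response element (CRE), the DNA site through which the activity-regulated factor CREB acts. The sequences come from RefSeq on rat build GRCr8, where 5 of the 8 members (Pvalb, Sst, Npy, Vip and Spp1) matched by symbol, and run from 250 bases before to 30 bases after the annotated gene start. The Sst window is chr11:90461296-90461575 on the plus strand and the Vip window chr1:44470230-44470509 on the plus strand. Capitals mark the CRE letters and TATA-like runs that a search found.
Sst: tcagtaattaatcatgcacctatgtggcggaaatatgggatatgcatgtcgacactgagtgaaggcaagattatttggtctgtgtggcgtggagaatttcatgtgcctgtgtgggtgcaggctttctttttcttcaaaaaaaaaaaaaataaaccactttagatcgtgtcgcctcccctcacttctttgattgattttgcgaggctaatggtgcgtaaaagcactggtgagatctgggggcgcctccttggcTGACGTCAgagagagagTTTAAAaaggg
Vip: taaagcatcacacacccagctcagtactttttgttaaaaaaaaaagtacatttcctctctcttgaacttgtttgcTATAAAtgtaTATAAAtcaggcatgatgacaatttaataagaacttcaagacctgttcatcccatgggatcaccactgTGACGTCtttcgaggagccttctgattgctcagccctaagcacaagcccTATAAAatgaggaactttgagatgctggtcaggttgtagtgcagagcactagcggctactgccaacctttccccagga
The full palindrome TGACGTCA, read on both strands, was found in Sst at bases 253 to 260 of its window and in none of the other 4 windows, and 1.78% of the 33469 RefSeq promoter windows of the same length held it. The shorter core TGACGTC, which the palindrome contains, was in Vip at bases 154 to 160 and in 3.11% of all windows, counted on both strands. TATAAA on the gene's strand stood in the Vip window 3 times, at bases 76 to 81, 86 to 91 and 203 to 208, and in 8.48% of all windows. TTTAAA stood in the Sst window at bases 270 to 275 and in 13.1% of all windows. In Sst, the palindrome and TTTAAA both lie after the annotated gene start and not before it. They begin at bases 3 and 20 counted from that start. Spp1 held TATAAA at bases 47 to 52 and TTTAAA at bases 232 to 237 of its window, which is not printed. Of the CRE letters, Pvalb held the short motif TGACG alone, which 20.2% of windows hold on either strand and which the longer motifs contain. These matches describe the printed letters and say nothing of whether a factor was bound.

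The deposited values fall into classes of very different spread. Over the 9 arrays, 26193 of the rat probe sets spanned less than 0.01 log2 units (median span 0.000475), and the other 4849 had a median span of 0.424. Calb1 and Calb2 belonged to the narrow class, and the other 6 members to the wide-spanning one. Chow 1 stood apart from the other arrays: it held the lowest value of 36.8% and the highest of 20.5% of the 4849 wide-spanning probe sets, against at most 13.6% and 14.3% for any other array. It also had the lowest value for 12 of the 13 wide-spanning hybridisation control probe sets, which detect transcripts added during processing and not rat RNA. Differences of the wide-spanning members, and the correlations named between them or with marker lists, are given with and without it.

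**Figure D1:**
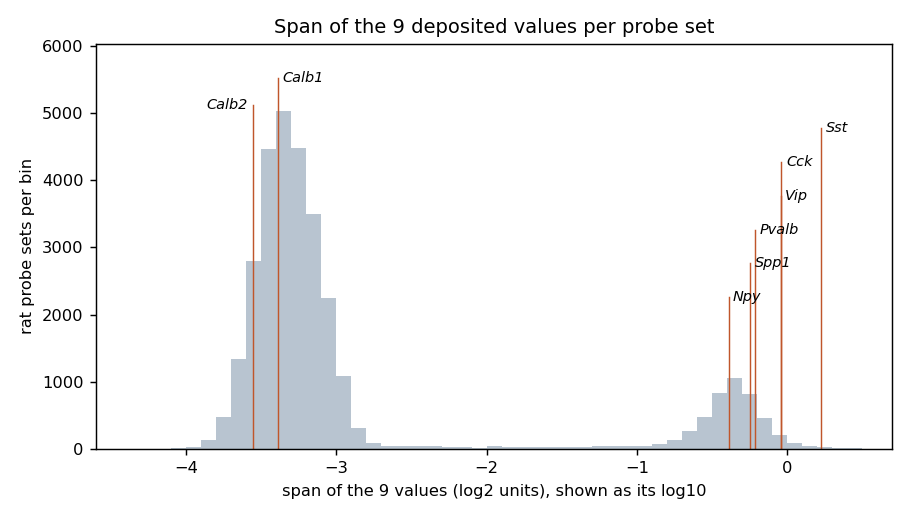
Number of rat probe sets (y axis) by the span of their 9 log2 values (x axis, log10 of the span in log2 units), with a vertical line at each of the 8 members whose height carries no value. Calb1 and Calb2 lie in the narrow class at 0.000406 and 0.000277, and the other 6 members lie between 0.41 (Npy) and 1.69 (Sst).

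None of the 8 members passed the test between the diets. With limma over all 31042 probe sets and Benjamini-Hochberg adjustment, 0 of 8 had an adjusted p under 0.05 and 0 of 8 had an unadjusted p under 0.05, whereas 34.6% of all probe sets were called in the same fit, 17.9% higher and 16.7% lower under chow. Among probe sets spanning at least 0.01 log2 units, to which 6 of the members belong, 54.9% were called, 16.1% higher and 38.8% lower. The chow and powder values overlapped for all 8 members, whereas the groups did not overlap for 29.9% of all probe sets and 50.0% of the wide-spanning ones. Of the 6 wide-spanning members, 3 had a higher mean under chow (Sst, Npy and Spp1) and 3 a lower one (Pvalb, Vip and Cck). In each of these 6 the SD was larger among the chow than among the powder arrays, by 1.26 times for Sst up to 3.94 times for Cck. Chow 1 was the lowest or highest array for all 6, and SDs without it were not computed. For Sst and Npy the range on chow 2 to 4 (8.40 to 9.25 and 8.62 to 8.82) was no wider than under powder (8.13 to 9.13 and 8.65 to 8.86). For Vip it was wider (9.41 to 9.89 against 9.67 to 9.96). It was also wider for Pvalb (9.39 to 9.68 against 9.34 to 9.54) and Spp1 (7.39 to 7.86 against 7.37 to 7.77). For Cck it was slightly wider (11.59 to 11.88 against 11.56 to 11.83).

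**Figure D2:**
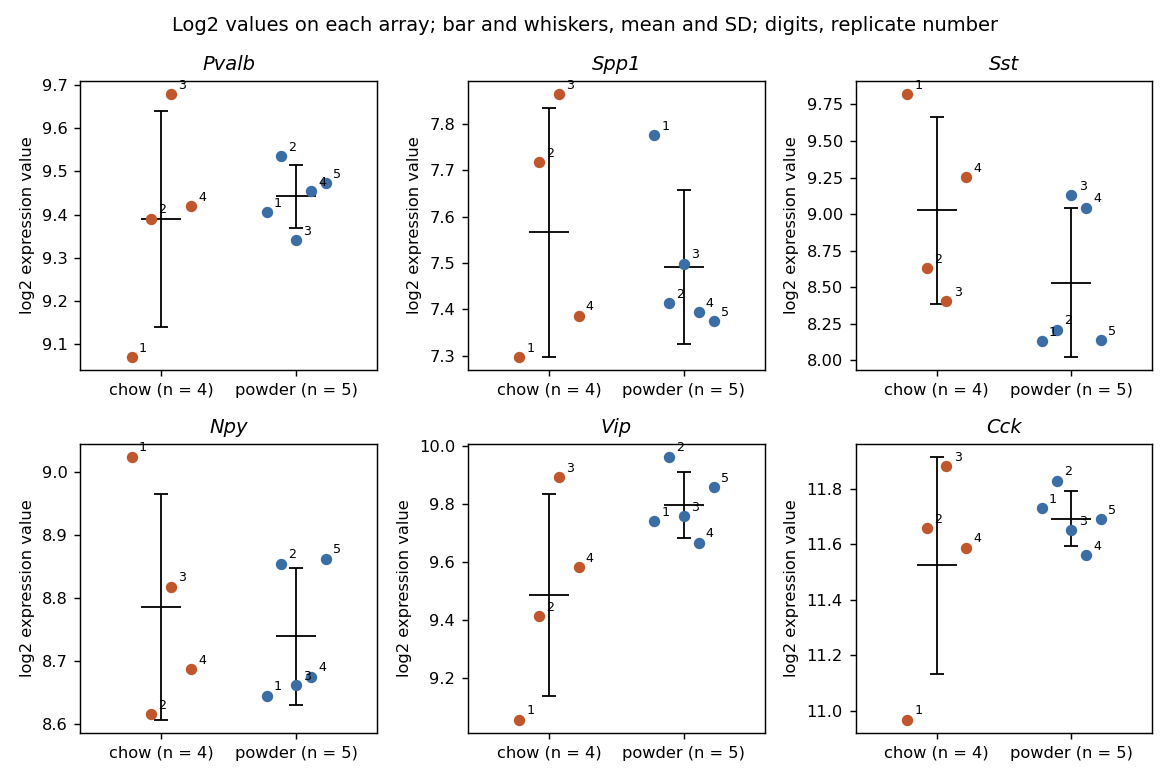
Log2 expression values (y axis) of the 6 wide-spanning members on each chow and powder array, with the replicate number beside each point and the mean and SD as bar and whiskers. Chow 1 is the lowest array for Pvalb, Spp1, Vip and Cck and the highest for Sst and Npy, and the groups overlap in every panel.

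Of the calcium-binding proteins, Pvalb encodes parvalbumin, the fast calcium buffer of rapidly firing inhibitory neurons and the usual marker of the reticular nucleus. Its log2 values were 9.07, 9.39, 9.68 and 9.42 on chow arrays 1 to 4, and 9.41, 9.54, 9.34, 9.45 and 9.47 on powder arrays 1 to 5. The chow arrays held both the lowest and the highest value, and the 5 powder arrays lay within a range of 0.20 between them. Pvalb averaged 9.39 ± 0.25 in the chow group (SD, n = 4) and 9.44 ± 0.073 in the powder group (SD, n = 5). The difference of -0.053 ± 0.11 (SE, adjusted p = 0.730 with limma) had a 95% confidence interval from -0.32 to 0.21, or 0.803-fold to 1.16-fold. Without chow 1 the difference turned to 0.054 (adjusted p = 0.613). In tissue RNA, fewer cells of a type and less RNA per cell cannot be told apart, for this gene and for those that follow.

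Calb1 encodes calbindin, a calcium buffer of matrix-type relay neurons and of some interneurons, and Calb2 encodes calretinin, its relative in midline thalamic neurons and another interneuron class. Calb1 was at 10.49 on all 4 chow and all 5 powder arrays, with a span of 0.000406 log2 units. Calb2 was at 10.30 on all 4 chow and all 5 powder arrays, with a span of 0.000277. Nothing can be read about the size of a diet effect on either gene, because the deposited values of narrow-spanning probe sets hold almost no variation of any kind. Their differences were 7.9e-05 (Calb1, adjusted p = 0.517) and 3.0e-05 (Calb2, adjusted p = 0.717) with limma, neither called.

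Of the neuropeptides, Sst varied most. It encodes somatostatin, an inhibitory peptide of dendrite-targeting interneurons, of reticular nucleus neurons and of hypothalamic cells. Its log2 values were 9.82, 8.63, 8.40 and 9.25 on chow arrays 1 to 4, and 8.13, 8.21, 9.13, 9.04 and 8.14 on powder arrays 1 to 5. High values, above 9, occurred in both groups, on chow 1 and 4 and on powder 3 and 4, and the other 5 arrays lay between 8.13 and 8.63. Sst averaged 9.03 ± 0.64 in the chow group (SD, n = 4) and 8.53 ± 0.51 in the powder group (SD, n = 5). The difference of 0.50 ± 0.37 (SE, 1.41-fold, adjusted p = 0.313 with limma) was the largest of the 8 and lay within the spread between arrays. Its 95% confidence interval ran from -0.37 to 1.36, or 0.774-fold to 2.57-fold. Without chow 1 it was 0.23 (adjusted p = 0.626).

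Npy encodes neuropeptide Y, an inhibitory peptide often made together with somatostatin. Its values were 9.02, 8.62, 8.82 and 8.69 on chow arrays 1 to 4, and 8.65, 8.85, 8.66, 8.68 and 8.86 on powder arrays 1 to 5. Chow 1 was the highest array and chow 2 the lowest, with the powder arrays between them. Npy averaged 8.79 ± 0.18 in the chow group (SD, n = 4) and 8.74 ± 0.11 in the powder group (SD, n = 5), and the difference was 0.046 ± 0.093 (SE, adjusted p = 0.712 with limma, 95% confidence interval -0.17 to 0.26). Without chow 1 it was -0.033 (adjusted p = 0.757).

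Vip encodes vasoactive intestinal peptide, made in cortex by interneurons that mainly inhibit other interneurons. Its values were 9.06, 9.41, 9.89 and 9.58 on chow arrays 1 to 4, and 9.74, 9.96, 9.76, 9.67 and 9.86 on powder arrays 1 to 5. Chow 1, 2 and 4 lay below every powder array, and chow 3 lay above 4 of the 5. Vip averaged 9.49 ± 0.35 in the chow group (SD, n = 4) and 9.80 ± 0.11 in the powder group (SD, n = 5). The difference of -0.31 ± 0.16 (SE, 0.806-fold, 95% confidence interval -0.68 to 0.061) had the smallest p of the 8 (unadjusted p = 0.0892, adjusted p = 0.159 with limma). It depended on single chow arrays: without chow 3 it was -0.45 and passed the threshold (adjusted p = 0.0423), and without chow 1 it was -0.17 (adjusted p = 0.313).

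Cck encodes cholecystokinin, a peptide of one class of interneurons and also of glutamatergic neurons. Its values were 10.97, 11.66, 11.88 and 11.59 on chow arrays 1 to 4, and 11.73, 11.83, 11.65, 11.56 and 11.69 on powder arrays 1 to 5. Chow 1 lay below every other array, and the other 3 chow arrays fell in or just above the powder range. Cck averaged 11.52 ± 0.39 in the chow group (SD, n = 4) and 11.69 ± 0.099 in the powder group (SD, n = 5), with a difference of -0.17 ± 0.17 (SE, adjusted p = 0.461 with limma, 95% confidence interval -0.58 to 0.24). Without chow 1 the difference was 0.017 (adjusted p = 0.891, 95% confidence interval -0.19 to 0.22).

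Spp1, the gene of osteopontin, had values of 7.30, 7.72, 7.86 and 7.39 on chow arrays 1 to 4, and 7.77, 7.41, 7.50, 7.39 and 7.37 on powder arrays 1 to 5. Chow 2, chow 3 and powder 1 were high and the other 6 arrays were between 7.30 and 7.50. Spp1 averaged 7.57 ± 0.27 in the chow group (SD, n = 4) and 7.49 ± 0.17 in the powder group (SD, n = 5), and the difference was 0.075 ± 0.14 (SE, adjusted p = 0.691 with limma, 95% confidence interval -0.25 to 0.40). Without chow 1 it was 0.16 (adjusted p = 0.389), and without chow 3 it was -0.024 (adjusted p = 0.896).

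**Figure D3:**
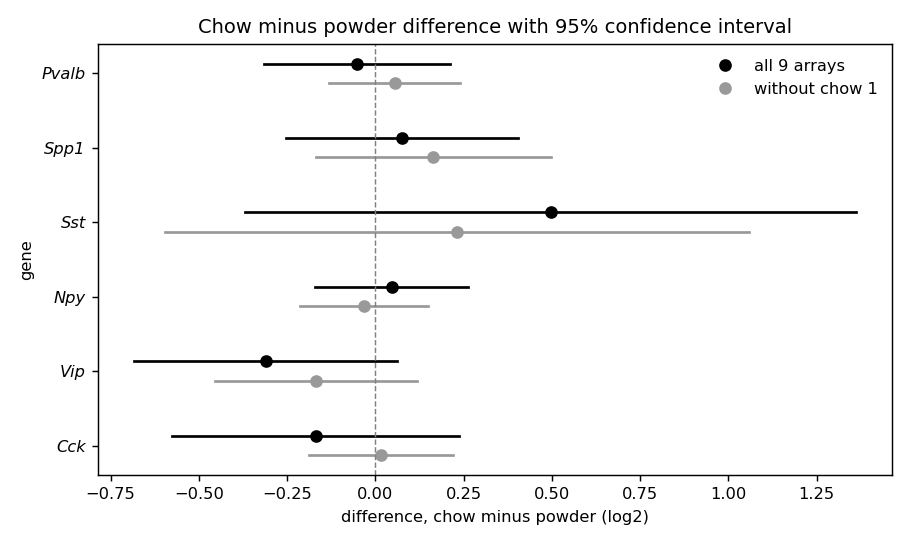
Chow minus powder difference (x axis, log2) of the 6 wide-spanning members with its 95% confidence interval from limma, over all 9 arrays (black, upper) and without chow 1 (grey, lower). Every interval includes 0, and the points for Pvalb, Npy and Cck change sides of 0 when chow 1 is left out.

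Across arrays, Pvalb, Vip and Cck were all lowest on chow 1 and all highest on chow 3 and powder 2, whereas Sst was highest on chow 1. Over 15 pairs of the 6 wide-spanning members, 5 had an adjusted p under 0.05 by Pearson correlation with two-sided exact permutation over the 9 arrays, and 0 by Spearman correlation. Vip and Cck had r = 0.90 (exact permutation p = 0.00254, adjusted p = 0.0127) and rho = 0.80 (exact permutation p = 0.0138, adjusted p = 0.104). Leaving out chow 1 and chow 2, the arrays farthest from the median of Vip, r was 0.85, and without chow 1 alone it was 0.69. Sst and Cck had r = -0.83 (exact permutation p = 0.00254, adjusted p = 0.0127) and rho = -0.80 (exact permutation p = 0.0138, adjusted p = 0.104), with r = -0.64 without chow 1 and chow 4 and -0.71 without chow 1 alone. Pvalb with Cck had r = 0.91 (exact permutation p = 0.00244, adjusted p = 0.0127) and rho = 0.68 (exact permutation p = 0.0503, adjusted p = 0.151), and r was 0.49 without chow 1 and chow 3, so that this relation rests on those arrays, and 0.75 without chow 1 alone. Sst and Npy, which interneurons often make together, had r = 0.22 (exact permutation p = 0.578, adjusted p = 0.578) and rho = 0.15 (exact permutation p = 0.708, adjusted p = 0.759), with r at -0.55 without chow 1 and chow 4 and -0.54 without chow 1 alone.

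The members were then set beside lists of marker genes for thalamic relay neurons and for neighbouring regions and cell types. Each list was taken as the mean log2 value of its wide-spanning probe sets, centred on the 9 arrays, and 54 relations (6 members with 9 lists) were computed. By two-sided exact permutation, 8 had an adjusted p under 0.05 by Pearson correlation and 7 by Spearman correlation, 6 of them by both. Cck followed the relay neuron list of 20 probe sets (r = 0.98, exact permutation p = 0.000102, adjusted p = 0.00275, and rho = 0.95, exact permutation p = 0.000353, adjusted p = 0.00952). With chow 1 and chow 3 left out, r was 0.84, and with chow 1 alone left out it was 0.89. For Vip, the same list passed adjustment by Pearson and not by Spearman correlation (r = 0.88, exact permutation p = 0.00672, adjusted p = 0.0454, and rho = 0.78, exact permutation p = 0.0172, adjusted p = 0.0889), with r = 0.87 without chow 1 and chow 2 and 0.60 without chow 1 alone. For Pvalb, the usual reticular marker, r with the relay list was 0.89 (exact permutation p = 0.00281, adjusted p = 0.0253), rho was 0.77 (exact permutation p = 0.0214, adjusted p = 0.0889), and r was 0.45 without chow 1 and chow 3, so that the relation rests on those arrays, and 0.67 without chow 1 alone.

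Sst ran opposite to the relay neuron list (r = -0.84, exact permutation p = 0.000728, adjusted p = 0.00982, and rho = -0.85, exact permutation p = 0.00607, adjusted p = 0.0469). Leaving out chow 1 and chow 4, r was -0.71, and without chow 1 alone it was -0.81. Sst went with the hypothalamus list of 8 probe sets, which hold peptide genes such as Pmch, Oxt, Avp and Hcrt (r = 0.90, exact permutation p = 0.00254, adjusted p = 0.0253, and rho = 0.90, exact permutation p = 0.00203, adjusted p = 0.0365), with r = 0.91 without chow 1 and chow 4 and 0.93 without chow 1 alone. The centred mean of that list was 0.57, -0.26, -0.28 and 0.55 on chow arrays 1 to 4, and -0.87, -0.29, 0.37, 0.62 and -0.41 on powder arrays 1 to 5, so the 4 arrays high in Sst were the 4 on which it was above 0. Pmch, which encodes melanin-concentrating hormone of the lateral hypothalamus, was at 11.22, 10.28, 10.11 and 11.24 on the chow arrays, and at 8.83, 9.42, 10.93, 10.78 and 8.56 on the powder arrays. Not every gene of the list followed Sst. Trh was lowest on chow 1 (8.21), where Sst was highest, and was at 8.74 on powder 2 and 8.87 on powder 4. Hcrt was at 7.98 and 7.90 on chow 1 and 4. On powder 3 and 4 it was at 7.09 and 7.16, below chow 2 at 7.21. None of the 14 probe sets of the hypothalamus list was called between the diets on the deposited values. After quantile normalization 2 were called higher, and with array medians subtracted 7, 1 of them wide-spanning. Of all 31042 probe sets, 15610 and 27206 were called higher under those scalings. Sst also went with the striatal list of 13 probe sets (r = 0.80, exact permutation p = 1.93e-05, adjusted p = 0.00104, and rho = 0.97, exact permutation p = 0.000165, adjusted p = 0.00893), with r = 0.96 without chow 1 and chow 4 and 0.95 without chow 1 alone. Cck ran opposite to the striatal list (r = -0.95, exact permutation p = 0.00331, adjusted p = 0.0256, and rho = -0.87, exact permutation p = 0.00451, adjusted p = 0.0406), with r = -0.81 without chow 1 and chow 3 and -0.66 without chow 1 alone. The striatal mean was 0.75 on chow 1, -0.11 to 0.017 on the other chow arrays and -0.17 to -0.055 on the powder arrays. Outside chow 1, the probe sets of the striatal list did not all follow Sst. Penk was at 9.32 on chow 4, 9.13 on powder 3 and 9.23 on powder 4, and between 8.60 and 8.87 on the remaining arrays. Ppp1r1b and 1 Pde10a probe set were instead lowest on powder 4 (7.74 and 8.72), an array high in Sst. What part these markers of other regions have in the differences of Sst, Vip and Cck was not tested.

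**Figure D4:**
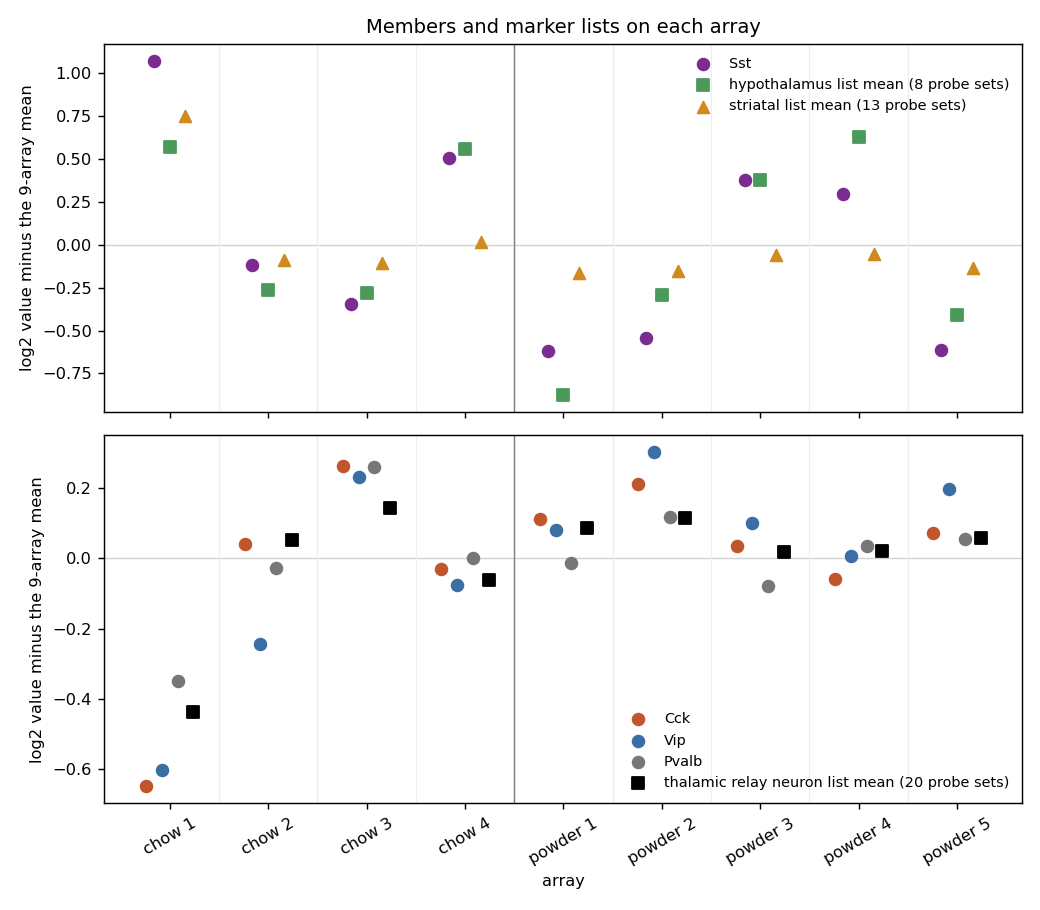
Log2 value minus the mean of the 9 arrays (y axis) on each array (x axis), for Sst with the hypothalamus and striatal list means (upper panel) and for Cck, Vip and Pvalb with the thalamic relay neuron list mean (lower panel). Sst and the hypothalamus mean are above 0 on the same arrays, chow 1 and 4 and powder 3 and 4, and the lower panel shows all 4 quantities at their lowest on chow 1.

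The members were also set beside the genes of GABA production. On chow 1 the centred mean of those genes was 0.70, and the striatal and hypothalamus list means were 0.75 and 0.57. From which region or cell type the RNA of the GABA genes came was not tested. Gad1 and Gad2 encode the enzymes that make GABA, and Slc32a1 encodes its vesicular transporter. The centred mean of their 4 wide-spanning probe sets went with Sst (r = 0.90, exact permutation p = 0.000697, adjusted p = 0.00982, and rho = 0.87, exact permutation p = 0.00451, adjusted p = 0.0406), with r = 0.77 without chow 1 and chow 4 and 0.83 without chow 1 alone. Cck had r = -0.89 (exact permutation p = 0.0121, adjusted p = 0.0546) and rho = -0.73 (exact permutation p = 0.0311, adjusted p = 0.112), with r = -0.94 without chow 1 and chow 3 and -0.49 without chow 1 alone. Vip had r = -0.83 (exact permutation p = 0.0143, adjusted p = 0.0595) and rho = -0.63 (exact permutation p = 0.0760, adjusted p = 0.205), with r = -0.67 without chow 1 and chow 2 and -0.45 without chow 1 alone. Pvalb had r = -0.69 (exact permutation p = 0.0710, adjusted p = 0.167) and rho = -0.35 (exact permutation p = 0.359, adjusted p = 0.461), with r = -0.47 without chow 1 and chow 3 and -0.018 without chow 1 alone. The correlations of Cck, Vip and Pvalb with the GABA genes thus did not pass adjustment, whereas that of Sst passed it. Each of them, that of Sst included, was smaller in size without chow 1 alone. That of Cck was larger in size without chow 1 and chow 3. None of these GABA genes was called between the diets on the deposited values: Gad2 differed by 0.60 ± 0.20 (SE, adjusted p = 0.0518 with limma), Slc32a1 by 0.25 ± 0.19 (adjusted p = 0.303) and the 2 Gad1 probe sets by 0.45 ± 0.20 (adjusted p = 0.108) and 0.075 ± 0.14 (adjusted p = 0.683). Without chow 1, Gad2 was called at 0.39 (adjusted p = 0.0405) and the smaller Gad1 difference turned to -0.063 (adjusted p = 0.572). Gad2 was also called after quantile normalization (adjusted p = 0.0298) and with array medians subtracted (adjusted p = 0.0156), and the larger Gad1 difference was called with array medians subtracted (0.46, adjusted p = 0.0468). The vesicular glutamate transporter of relay neurons, Slc17a6, differed by -0.13 ± 0.11 (adjusted p = 0.371).

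For Spp1, which macrophages also make, the centred mean of the 4 wide-spanning microglia and macrophage probe sets had r = -0.72 (exact permutation p = 0.0156, adjusted p = 0.0603) and rho = -0.67 (exact permutation p = 0.0589, adjusted p = 0.167), neither passing adjustment, with r = -0.82 without chow 3 and powder 1 and -0.71 without chow 1 alone. That list mean was 0.26, -0.19, -0.071 and 0.0073 on chow arrays 1 to 4, and lay between -0.086 and 0.070 on the powder arrays. Its 4 probe sets were of C1qa (span 0.33), Csf1r (0.066) and P2ry12 (2 probe sets, 0.55 and 1.00). Its variation thus came mostly from P2ry12.

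The genes whose pattern over the 9 arrays was most like each member were taken from 3201 other wide-spanning probe sets with a span of at least 0.1. Their correlations are high partly because so many were searched, were not computed without chow 1, and are given as description. Cck was most like Nrn1, which encodes the membrane protein neuritin (r = 0.99), and Vstm5 (r = 0.98). Vip was most like Rgs7, a regulator of G protein signalling (r = 0.98), and Zfand5 (r = 0.98). Pvalb was most like Gabrd, the delta subunit of extrasynaptic GABA-A receptors that relay neurons carry (r = 0.96), and Thy1, a neuronal surface protein (r = 0.95). Sst was most like Ahi1 (r = 0.98) and 6330403K07Rikl (r = 0.98). Spp1 was most like Vamp1, a synaptic vesicle fusion protein of fast-firing neurons (r = 0.91), and Bok (r = 0.87), and Npy was most like Ptprd (r = 0.88) and Eml4 (r = 0.86). None of these 12 genes was itself called between the diets, against 54.9% of wide-spanning probe sets. They were chosen for likeness to members that were not called, so nothing is read from that.

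Genes that work with the members, from 5 lists drawn up by function, were counted in the same fit. Over all their probe sets the counts depend on scaling: the lists had 3 to 10 higher calls on the deposited values, 11 to 23 after quantile normalization and 20 to 35 with array medians subtracted. Over wide-spanning probe sets the counts moved less, to at most 8 higher and 5 lower for the GABA neuron list with array medians subtracted, while the EF-hand list had 4 higher and 2 lower under that scaling and 3 in each direction with quantile normalization. The other 3 lists kept their counts under both scalings. Receptors for somatostatin, vasoactive intestinal peptide, neuropeptide Y, cholecystokinin and osteopontin, with the enzymes that process the peptides, had 40 probe sets for 26 genes, of which 3 were higher and 2 lower under chow, all on narrow-spanning probe sets. Their 8 wide-spanning probe sets had 0 calls and a median difference of -0.053, against -0.11 over all 4849. The largest differences there were -0.24 ± 0.12 for the neuropeptide Y receptor gene Npy1r (SE, adjusted p = 0.164) and -0.20 ± 0.16 for the vasoactive intestinal peptide receptor gene Vipr2 (adjusted p = 0.340), neither called. Other EF-hand calcium-binding proteins had 47 probe sets, 9 higher and 2 lower, and 16 wide-spanning ones, 2 higher and 1 lower with a median of 0.12. The calcium sensor gene Vsnl1 was called in both directions, at 0.25 ± 0.060 on one probe set (adjusted p = 0.0191) and -0.13 ± 0.038 on another (adjusted p = 0.0340), and its relative Ncald rose by 0.24 ± 0.052 on one (adjusted p = 0.0142) and was at -0.021 ± 0.0075 on another (adjusted p = 0.0608). That second Ncald probe set was called lower after quantile normalization (-0.028, adjusted p = 0.000179) and without chow 3 (adjusted p = 0.0406).

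Other genes of GABA neurons had 51 probe sets, 10 higher and 6 lower under chow, and 33 wide-spanning ones, 5 higher and 3 lower with a median of 0.11. Among these, Elavl2, a neuronal RNA-binding protein, rose on both probe sets (0.39 ± 0.067, adjusted p = 0.00726, and 0.22 ± 0.065, adjusted p = 0.0377), and so did the 1 wide-spanning probe set of Sox6, a transcription factor of parvalbumin and somatostatin interneuron precursors (0.33 ± 0.083, adjusted p = 0.0227). Prox1, a transcription factor of another interneuron lineage that other neurons also express, fell (-0.35 ± 0.071, adjusted p = 0.0110). Nr2f2, which encodes COUP-TFII, was called in both directions (0.31 ± 0.052, adjusted p = 0.00645, and -0.13 ± 0.038, adjusted p = 0.0401). Reticular nucleus, zona incerta and prethalamic genes had 29 probe sets, 5 higher and 1 lower, and 7 wide-spanning ones, 1 higher and 1 lower with a median of -0.084. Gabra3, the GABA-A receptor subunit prominent in the reticular nucleus, rose by 0.23 ± 0.066 (adjusted p = 0.0329) and the nuclear receptor gene Esrrg fell (-0.20 ± 0.056, adjusted p = 0.0311). Perineuronal net genes, whose matrix surrounds parvalbumin neurons, had 24 probe sets, 6 higher and 2 lower. Of 5 wide-spanning ones, Tnr, the gene of tenascin-R, rose (0.29 ± 0.044, adjusted p = 0.00522), and the proteoglycan Vcan (-0.22 ± 0.043, adjusted p = 0.0105) and the receptor phosphatase Ptprz1 (-0.23 ± 0.053, adjusted p = 0.0176) fell. Among the named probe sets of these lists, none changed direction under either scaling. With 1 array left out, only the smaller Gad1 difference did so, without chow 1. The smaller Elavl2 and Nr2f2 differences each lost their call without any 1 of 8 arrays (adjusted p from 0.0504 to 0.0936), Gabra3 without any 1 of 6, Esrrg and the negative Vsnl1 difference without any 1 of 5 (0.0501 to 0.0795 for these), and Sox6 without chow 1 or chow 2 (0.0513 and 0.0553). The shares of wide-spanning probe sets called were below the background of 54.9% in every list except the perineuronal net genes, with 3 of 5, and nothing particular to a list is read from them.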

How the data were processed

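RNA of 9 thalamus samples was measured on single-colour oligonucleotide arrays. Per the labels' protocols, total RNA was extracted with TRIzol, cleaned on RNeasy columns and, from 100 ng, made into biotin-labelled cRNA. The authors deposited log2 expression values, 1 for each probe set on each array. That the scale is log2 was read from the range of the values, 5.37 to 14.05, and neither software, normalization nor centring is given in the sources used here. Without detection calls no background level was set, and the number of arrays limits the precision. Groups and replicate numbers came from the sample titles. Gene names are those of the platform annotation (20826 with 1 symbol, 436 with several, 9780 with none listed), and all 8 member symbols were in the RefSeq gene table of GRCr8.

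The diets were compared with limma 3.58.1 in R 4.3.3 (lmFit, eBayes, no covariates) on the deposited values, over 31042 probe sets after 57 control probe sets were left out. Differences are chow minus powder and confidence intervals are at 95%. A probe set was called at a Benjamini-Hochberg adjusted p under 0.05. The fit was tested on simulated data in which 200 of 31042 probe sets were changed. It called 19% of changes of 3 SD and 93% of those of 6 SD, with 10 false calls among the unchanged probe sets. In the data 34.6% of probe sets were called, a far larger share than was changed in the simulation. The Benjamini-Hochberg cut-off depends on that share, so these percentages do not give the power of the fit to the data. Correlations were tested by exact permutation of all 362880 orders of the 9 arrays and adjusted within each family. Named beyond the members were Gad1, Gad2, Slc32a1 and Slc17a6, up to 4 genes per companion list by smallest p among called wide-spanning probe sets (the 2 of largest difference where none was called) and the 2 genes most like each member. Marker genes such as Pmch, Oxt, Avp and Hcrt were picked for naming with their values in view. The members, the lists and the span limit of 0.01 were chosen with earlier results of these data known. Alternatives were a trended robust variance, quantile normalization, median subtraction, leaving out the dimmest 25% or the narrow-spanning probe sets, weighting the arrays, blocking on the replicate number, each array left out, 1 probe set per gene and an adjusted p under 0.1.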

Additional observations from a re-analysis of the deposited data

Results flagged for a closer look

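Over 78 sets of values (each member, each named wide-spanning probe set and each marker list mean, in each group), 4 had 1 array far from the others of its group by Dixon's test, where chance gives about 1 in 20. None was a member. Gad2 was at 9.10 on chow 1, above the other chow arrays at 8.24 to 8.29. The striatal list mean was 0.75 on chow 1, the same array that was extreme for all 6 wide-spanning members. Tnr was at 8.82 on chow 2, above the other chow arrays, and the oligodendrocyte and astrocyte list mean was -0.060 on chow 3, below the other chow arrays.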

How the results depend on the processing

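With 4 and 5 arrays, the intervals of the wide-spanning members reached from 0.22 (Npy) to 0.87 (Sst) log2 units on either side, which limits what could be seen. No member was called with a trended robust variance, array weights, the dimmest or the narrow-spanning probe sets left out, 1 probe set per gene or an adjusted p under 0.1. Members called higher became 2 after quantile normalization and 2 with array medians subtracted: Calb1 (0.022 and 0.0067) and Calb2 (0.024 and 0.0066), whose shifts exceed the span of their deposited values. With 1 array left out in turn, members called lower ranged from 0 to 1 (Vip without chow 3) and differences ranged from -0.15 to 0.054 for Pvalb, -0.45 to -0.17 for Vip, -0.29 to 0.017 for Cck, -0.033 to 0.10 for Npy, -0.024 to 0.16 for Spp1 and -1.3e-05 to 7.2e-05 for Calb2. The 10753 probe sets called became 17464 with quantile normalization (15610 higher and 1854 lower, against 5558 and 5195), 29347 with medians subtracted (27206 and 2141), 2884 of 4849 without the narrow-spanning ones, 4684 of 14217 with 1 probe set per gene and 19 with the replicate block; the cause of the drop to 19 was not tested. The same-numbered chow and powder arrays correlated at -0.31, 0.19, -0.34 and -0.16 in their deviations from the group means. Differently numbered arrays were not compared, so these values cannot show whether the numbers pair the samples. The replicate block, in which powder 5 has no partner and does not contribute, called no member (adjusted p from 0.305 to 0.866, with Sst at 0.40 and Vip at -0.30).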
